A study of Homo sapiens with 7 samples.

Results

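Ribosome biogenesis and RNA polymerase I (Pol I) genes were followed across 7 RNA-seq libraries of HCT116 p53-/- cells. The set held 47 genes, taken by symbol from a named list, of 19699 protein-coding genes in the deposited count table, and each of the 47 was found once. HCT116 cells are a widely used line of human colon carcinoma origin, and p53-/- marks a derivative without functional p53. The cells had been infected with wild-type p53, with p53-M133T, with p53-R273H, or with a control named vector in the series design and vehicle in the treatment protocol (vector here). The 2 mutants each carry a missense change in the DNA-binding domain of p53. Cells with vector or either mutant were sequenced both untreated and after 24 h with 1 µg/ml of arsenic trioxide (ATO), and the wild-type p53 cells untreated only. All 7 groups therefore share the p53-/- background, and each had 1 library. The promoter behind the p53 constructs and whether a line was 1 clone are not known from the sources used here. The series title names the question, the rescue of mutant p53 by ATO.

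Levels are counts per library size (CPM) with TMM (trimmed mean of M-values) scaling, which sets the libraries to a common level of most genes. The wild-type p53 library had the lowest total, 25062996 counts, and the untreated p53-M133T library the highest, 39297534. Of the colon epithelial markers, EPCAM, KRT8, KRT18, KRT19, CDH1 and CLDN4 were present in every library, while VIL1 had at most 24 counts and LGALS4 at most 5. The wild-type p53 library stood apart in that its 10 leukocyte markers summed to 72.5 CPM, against 4.95 to 9.14 CPM in the other 6 libraries. The 6 erythroid and endothelial markers summed to 19.9 CPM in wild-type p53 and 14.6 CPM in untreated vector, against 1.85 to 3.10 CPM in the other 5, with HBB at 217 and 156 counts against 0 to 5. The untreated vector library, the reference of 4 comparisons here, thus also stood apart in these markers, and their part in the results was not tested. The name of the wild-type p53 library also carries another numeric prefix than the others, so that an effect of batch and one of genotype cannot be told apart in it.

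Ribosomes are assembled mainly in the nucleolus, where Pol I transcribes the precursor of the 18S, 5.8S and 28S ribosomal RNAs. Small nucleolar ribonucleoproteins (snoRNPs) of the box C/D and box H/ACA classes guide its methylation and pseudouridylation, the small subunit processome folds and cleaves it, and separate sets of factors mature the 40S and 60S subunits. Many of these genes are known targets of the transcription factor MYC, which with its partner MAX binds the E-box letters CACGTG, and defects of the pathway can stabilise p53 through free ribosomal proteins that bind MDM2.

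Promoter stretches with the E-box letters are shown because these letters occurred in a larger share of the promoters of these genes than of all promoters. Windows of 300 bases, from 250 before to 50 after the transcription start, were taken from RefSeq (GRCh38.p14) for the 40 genes that the table held. CACGTG, which reads the same on both strands, occurred in 14 of the 40 windows (35.0%) and in 1851 of 22199 windows of protein-coding genes (8.34%). The related letters CACGCG or their complement CGCGTG, which can overlap an E-box by a base or more, occurred in 35.0% against 14.3%, CCAAT or ATTGG 35.0% against 34.7%, and TATAAA or TTTATA 2.5% against 9.47%. The 4 stretches below are examples from genes that passed one of the tests reported here, on the strand of the gene and 5′ to 3′, with CACGTG in capitals. They lie at chr17:51260430-51260489 (plus strand) for UTP18, chr12:101280068-101280104 (plus strand) for UTP20, chr16:69132606-69132648 (plus strand) for UTP4 and chr15:34343274-34343333 (minus strand) for NOP10.
UTP18: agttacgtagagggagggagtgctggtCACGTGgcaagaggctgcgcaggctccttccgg
UTP20: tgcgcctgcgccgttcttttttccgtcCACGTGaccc
UTP4: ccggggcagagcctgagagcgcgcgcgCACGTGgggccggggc
NOP10: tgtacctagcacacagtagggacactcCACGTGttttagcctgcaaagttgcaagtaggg
Stretches of other genes that passed, such as EBNA1BP2 with a copy 237 bases before its start, are not shown. The letters began 89, 10, 16 and 170 bases before the RefSeq start in UTP18, UTP20, UTP4 and NOP10. The letters have a further copy in the window of UTP18 and in that of NOP10, there 11 bases before the start. They were present in 4 of 13 windows of genes that rose with ATO, in 2 of 3 windows of genes that fell and in 8 of 24 windows of the rest. A match describes the letters in the window and shows no binding.

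All 47 genes were well measured, and the lowest count in any library was 887, for GAR1 in wild-type p53. Per kilobase of exon, the mean over the 7 libraries was highest for the multifunctional nucleolar proteins NPM1 (451 CPM per kb), a histone and ribosome chaperone, and NCL (230.1 CPM per kb), which binds nascent ribosomal RNA. The other roles were led by NOP10 of the H/ACA core (131 CPM per kb), the box C/D methyltransferase FBL (109), the helicase DDX21 (106), the endonuclease NOB1 that forms the 3′ end of 18S rRNA (74.4), BOP1 of 60S assembly (44.05) and the Pol I initiation factor RRN3 (38.1). The lowest mean was that of POLR1C, a subunit shared by Pol I and Pol III, at 8.56 CPM per kb.

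Together the 47 genes took up 0.796% of the counts in wild-type p53 and between 0.955% and 1.005% in the other 6 libraries. Their summed level was 7723.9 CPM in wild-type p53. It was 9313.5 CPM in vector, 10011.6 CPM in p53-M133T and 9360.0 CPM in p53-R273H without ATO. With ATO the sums were 10061.9, 9984.5 and 9733.8 CPM in the same order. The wild-type p53 library was the lowest of the 7. By this sum the untreated p53-M133T library lay with the treated ones rather than with the other untreated ones. NCL at 1852.4 CPM and NPM1 at 1893.7 CPM were a large part of the untreated p53-M133T sum. Its sums by role were above every treated library for multifunctional proteins, box C/D and large subunit assembly. They were below every treated library for the Pol I machinery, box H/ACA, small subunit maturation and the processome. For the processome the sum was 1690.1 CPM, against 1955.2 to 2016.2 CPM with ATO. Because these are bulk libraries, fewer cells of a type and less RNA per cell cannot be told apart.

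**Figure D1:**
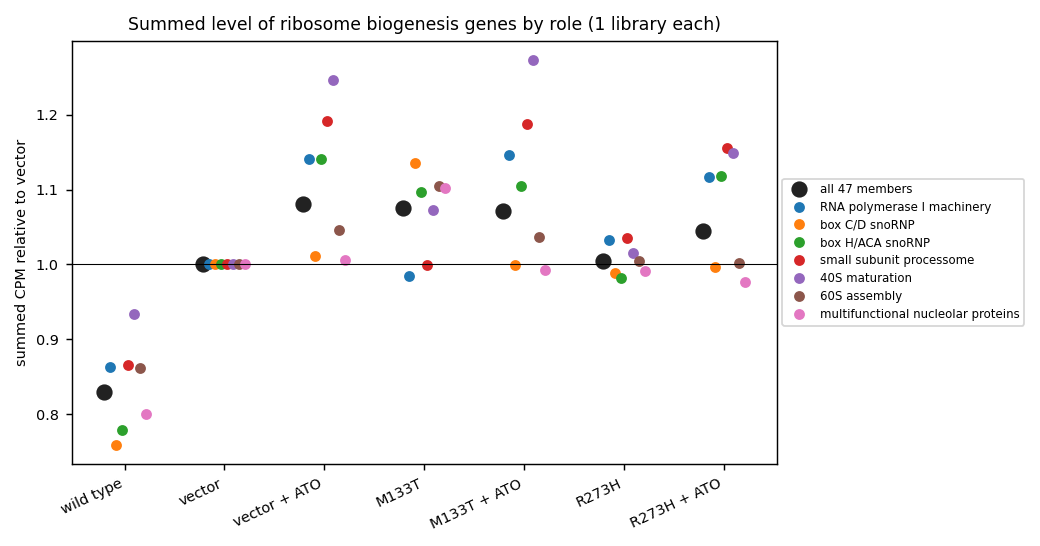
Summed TMM-scaled CPM of the 47 genes and of each of 7 roles, relative to the untreated vector library (y axis), in each of the 7 libraries (x axis), with 1 point per set and library and no error bars because each group had 1 library. The wild-type p53 points lie below 1 for all 7 roles, and those of 40S maturation, the small subunit processome, the Pol I machinery and the box H/ACA group are higher with ATO in each of the 3 lines.

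The ATO effect common to the 3 lines was tested with edgeR's quasi-likelihood test over 13572 genes, with the cell line as a block. The 3 lines served as the only repeats, with 2 residual degrees of freedom. The p-values of this test rest on the spread between lines, pooled with that of all genes (5.95 prior degrees of freedom). With ATO, 16 of the 47 genes rose and 4 fell at a Benjamini-Hochberg adjusted p under 0.05. ATO called 43.2% of all genes tested, 22.3% of them higher and 20.9% lower, and 42.6% of the 47 genes, 34.0% higher and 8.51% lower. The share called was thus near the background, while the split favoured higher levels in the 47 genes more than in all genes. The median log2 change was 0.10 for the 47 genes and 0.0019 for all genes, and 30 of 47 estimates (63.8%) against 50.3% lay above 0. Without the vector pair of libraries 5 of the 47 genes were called and 21.8% of all genes, and 13 calls were on genes that share no exon with another protein-coding gene. RRN3, UTP15, DDX21 and RRP12, which rose, and BOP1, which fell, were called in all 10 settings in which all 47 genes were kept; UTP15 shares an exon with ANKRA2 on the opposite strand and is not among the 13. Without the p53-R273H pair POLR1B, GAR1, UTP4, NOP14 and WDR12 were not called.

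**Figure D2:**
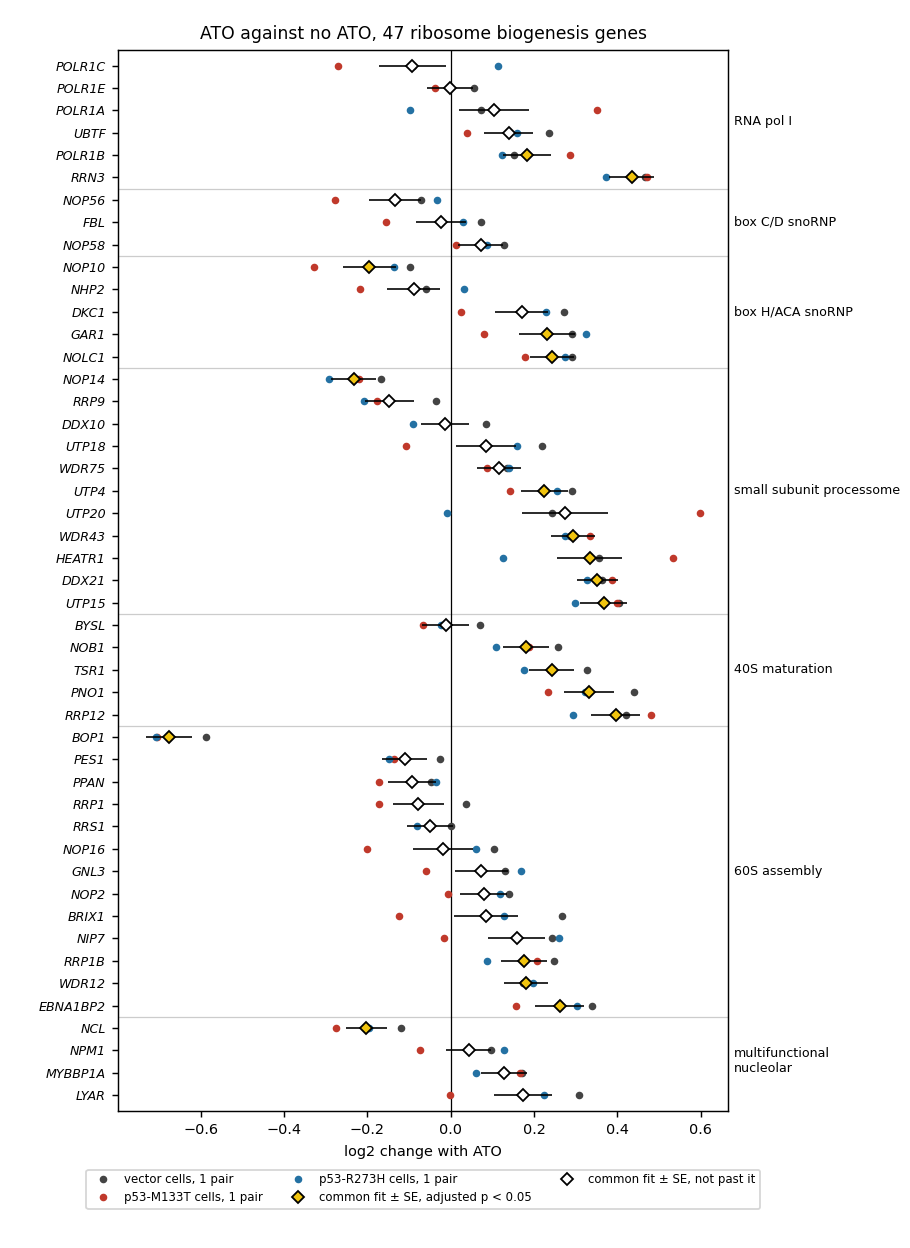
Log2 change with ATO (x axis) of each of the 47 genes grouped by role (y axis), as the common estimate with its SE (diamonds, filled at adjusted p under 0.05) and as the log2 ratio of CPM + 1 in each line (circles, 1 pair of libraries each). The 16 filled diamonds right of 0 are spread over 5 roles, and BOP1 lies farthest to the left at -0.68.

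In the Pol I machinery RRN3 and POLR1B rose, and the other 4 genes did not pass the test. RRN3 (ENSG00000085721, chromosome 16, 15060022 to 15094317, minus strand, hg38), the growth-regulated factor that brings Pol I to its promoter, stood at 135, 131 and 145.5 CPM in untreated vector, p53-M133T and p53-R273H cells and at 186, 182 and 189 CPM with ATO. All 3 treated libraries were above all untreated ones, the wild-type p53 library at 140.0 CPM included. The common log2 change was 0.43 ± 0.05 (SE; 1.35-fold; higher in 3 of 3 lines; edgeR adjusted p = 0.000718). POLR1B, the subunit that forms the catalytic core with POLR1A, rose 1.14-fold (log2 0.18 ± 0.06; adjusted p = 0.0361 by the same edgeR test), a call lost with the length and GC correction (0.13; adjusted p = 0.0702). POLR1A had a log2 change of 0.10, the rDNA architectural factor UBTF one of 0.14, and POLR1E, a further Pol I subunit, one of -0.001, none past the threshold.

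None of the 3 box C/D core protein genes passed the edgeR test, and none did at an unadjusted p under 0.05 or by DESeq2's Wald test. FBL stood at 234.5, 272.9 and 230.2 CPM in untreated vector, p53-M133T and p53-R273H cells and at 247, 245 and 235.0 CPM with ATO, so that the groups overlapped. NOP56, a scaffold of the particle, was lower with ATO in all 3 lines, with a log2 change of -0.13 (edgeR adjusted p = 0.119). In the box H/ACA group GAR1 of the core (log2 0.23) and the snoRNP chaperone NOLC1 rose, NOP10 fell, and the pseudouridine synthase DKC1 (0.17) and NHP2 (-0.09) did not pass. NOLC1 stood at 249.9, 265.5 and 252.5 CPM without ATO and at 306, 300.5 and 306 CPM with it, with no overlap (1.18-fold; log2 0.24 ± 0.05; edgeR adjusted p = 0.00776). NOP10, whose promoter stretch is shown above, stood at 72.6, 86.3 and 71.1 CPM without ATO and at 67.8, 68.6 and 64.7 CPM with it. Its treated libraries were all below its untreated ones, with a log2 change of -0.20 ± 0.06 (edgeR adjusted p = 0.0393). This call was lost with the length and GC correction (-0.11; adjusted p = 0.194), by DESeq2's Wald test (adjusted p = 0.0697), and without the block, the vector pair or the p53-M133T pair in turn.

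Of the 11 small subunit processome genes, 5 rose and 1 fell. DDX21, an RNA helicase that binds ribosomal RNA and snoRNAs, stood at 485, 474 and 491 CPM in untreated vector, p53-M133T and p53-R273H cells and at 623, 619 and 615 CPM with ATO. UTP15 stood at 55.1, 51.9 and 56.4 CPM without ATO and at 73.2, 68.8 and 69.6 CPM with it, and WDR43 at 160.3, 154 and 163 CPM and then 196, 194 and 197 CPM. In all 3 genes the treated libraries lay above the untreated ones. UTP15, WDR43, HEATR1 and UTP4 belong to the subcomplex that binds the nascent precursor early and links it to Pol I transcription, and all 4 rose. The edgeR changes were 0.35 ± 0.05 (adjusted p = 0.00113) for DDX21, 0.37 ± 0.06 (adjusted p = 0.00181) for UTP15 and 0.29 ± 0.05 (adjusted p = 0.00342) for WDR43. HEATR1 stood at 238, 211 and 263 CPM and then 305, 306 and 287 CPM, also with no overlap (log2 0.33 ± 0.08; edgeR adjusted p = 0.0103). UTP4 rose by 0.23 on the log2 scale, and WDR75 of the same subcomplex had a change of 0.12 that did not pass. NOP14 fell (log2 -0.23 ± 0.05; edgeR adjusted p = 0.0104), from 149.6, 163 and 158.5 CPM to 133.1, 140.1 and 129 CPM. A correction for exon length and GC content lowered the log2 changes of HEATR1, UTP15 and WDR43 to 0.20, 0.23 and 0.19, with all 3 still called.

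Of the 5 genes of 40S maturation 4 rose and none fell. RRP12, which accompanies pre-40S particles out of the nucleus, stood at 100.6, 108.5 and 102 CPM in untreated vector, p53-M133T and p53-R273H cells and at 135.0, 152 and 125 CPM with ATO. PNO1, an RNA-binding protein of pre-40S particles, stood at 46.1, 51.6 and 47.8 CPM untreated, and with ATO at 62.9 CPM in vector, at 60.85 CPM in p53-M133T and at 1.26 times its untreated level in p53-R273H cells. Neither gene overlapped between treated and untreated libraries. The changes were 0.40 ± 0.06 (1.32-fold; edgeR adjusted p = 0.00156) for RRP12 and 0.33 ± 0.06 (1.26-fold; edgeR adjusted p = 0.00396) for PNO1. TSR1 rose by 0.24 and NOB1, the nuclease that completes 18S rRNA, by 0.18 on the log2 scale, while BYSL had a change of -0.01.

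In 60S assembly 3 of 13 genes rose and 1 fell, and the gene that fell had the largest change of the 47 in the uncorrected fit. BOP1 (ENSG00000261236, chromosome 8, 144262102 to 144291370, minus strand, hg38) stood at 199, 226 and 199 CPM in untreated vector, p53-M133T and p53-R273H cells and at 132, 138 and 121.5 CPM with ATO. The treated libraries were all below the untreated ones and lay around the wild-type p53 library at 129.9 CPM. The common change was -0.68 ± 0.06 (0.626-fold; lower in 3 of 3 lines; edgeR adjusted p = 0.000122), and -0.40 with the length and GC correction (adjusted p = 0.00023), where that of RRP12 was larger at 0.51. BOP1 forms the PeBoW complex, needed for 5.8S and 28S rRNA processing, with PES1 and WDR12. PES1 stood at 193.5, 219.7 and 192 CPM and then 190.0, 199.7 and 173.5 CPM, and its change of -0.11 did not pass (edgeR adjusted p = 0.135). WDR12 stood at 98.9, 101 and 94.6 CPM and then 112, 115 and 108.5 CPM and rose by 0.18 (adjusted p = 0.0267), a call lost with the length and GC correction, where its change was 0.03. The 3 partners thus had a fall, no call and a rise, and whether they differ from each other was not tested. EBNA1BP2, a nucleolar assembly factor of the large subunit, rose from 115, 125 and 110.4 CPM to 145, 139.7 and 136.5 CPM (log2 0.26 ± 0.06; edgeR adjusted p = 0.00893), and RRP1B rose by 0.18.

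Of the 4 multifunctional proteins only NCL was called. NCL stood at 1686.4, 1852.4 and 1748.5 CPM in untreated vector, p53-M133T and p53-R273H cells and at 1554.3, 1531.2 and 1525.2 CPM with ATO. The treated libraries were all below the untreated ones, and the wild-type p53 library was lower still at 1263.4 CPM. NCL fell by 0.20 ± 0.05 on the log2 scale (edgeR adjusted p = 0.0128). NPM1, the most abundant of the 47 genes, stood at 1715.1, 1893.7 and 1615.6 CPM and then 1833.6, 1800.6 and 1764.3 CPM, with overlap and a change of 0.04 (edgeR adjusted p = 0.541). In all, 19 of the 47 genes (40.4%) had all 3 treated libraries above all 3 untreated ones, against 26.2% of genes tested, and 5 (10.6%; NOP56, NOP10, NOP14, BOP1 and NCL) had all below, against 26.0%. Within lines, 21 (44.7%) were higher with ATO in each of the 3, against 34.0%, and 9 (19.1%) were lower in each, against 33.2%.

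**Figure D3:**
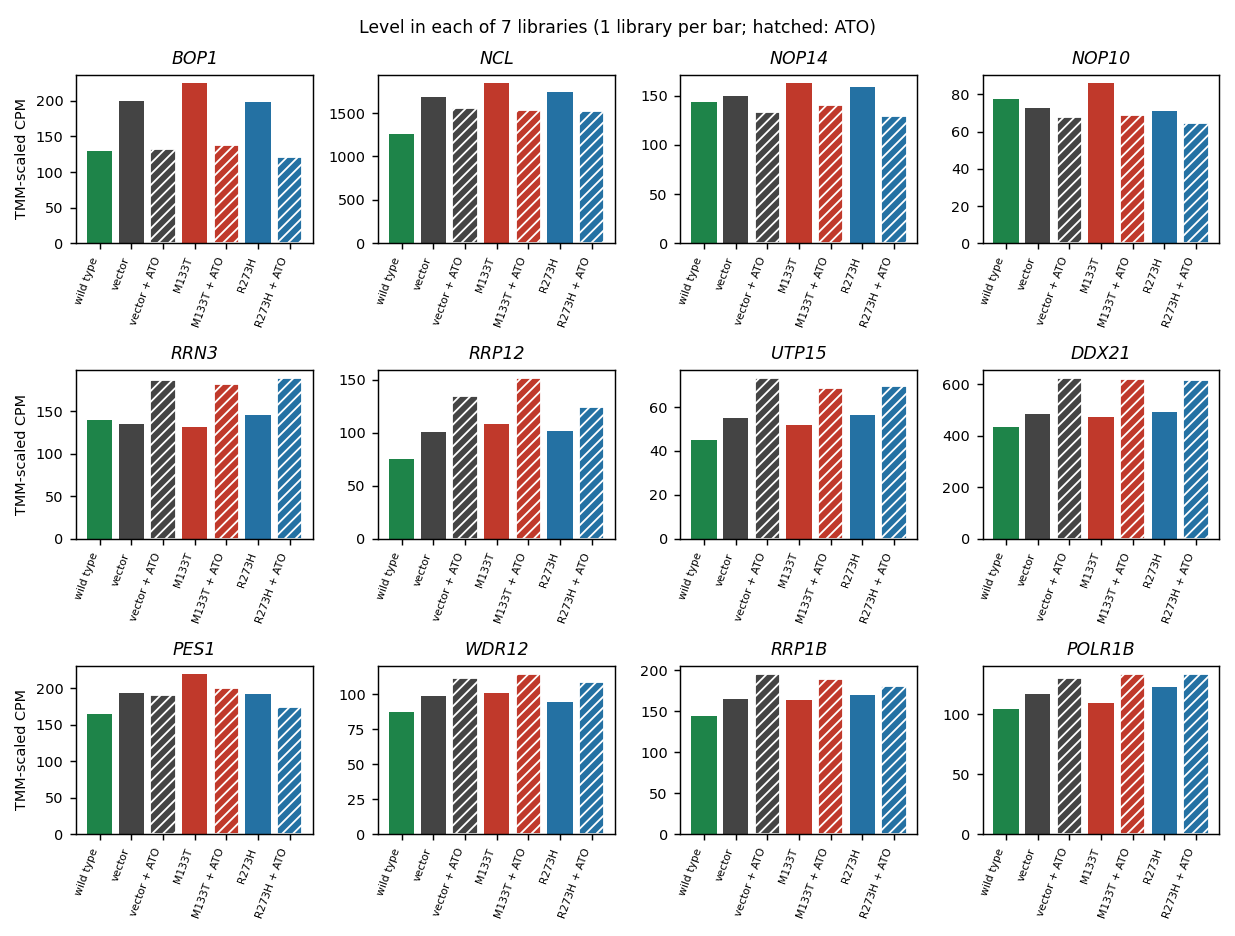
TMM-scaled CPM (y axis, from 0) of 12 of the 47 genes in each of the 7 libraries (x axis; bars are single libraries with no error bars, hatched with ATO). The ATO bars of BOP1, NCL, NOP14 and NOP10 are lower than the untreated bars of all 3 lines, and those of RRN3, RRP12, UTP15 and DDX21 are higher.

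The summed leukocyte markers were 4.95 to 6.28 CPM in the 3 untreated libraries and 8.15 to 9.14 CPM in the 3 treated ones, and CD68, a lysosomal protein gene, made up most of the counts. PTPRC and CD3E had at most 4 counts in any library. The part of these markers in the changes with ATO was not tested. The changes of the 47 genes also followed base composition: across genes the common log2 change had a Spearman correlation with GC content of -0.47 over the 47 genes and of -0.37 over 13572 genes, all from the same 6 libraries. Once exon length and GC content were corrected for, 19 of the 47 genes were called higher and 4 lower. Of all 13572 genes, 3113 were then called higher and 2671 lower.

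Another 116 ribosome biogenesis genes were tested in 5 lists, and 43.1% were called, against 43.2% of all genes. Of these, 40 rose (34.5%) and 10 fell (8.62%), with a median log2 change of 0.10 and 75 of 116 above 0. Without the vector pair 9 of the 116 rose and 2 fell, in a fit that called 21.8% of all genes. Of 46 further 60S factors 20 rose and 2 fell, among them SBDS, which helps to release eIF6 from the large subunit, at 1.44-fold (edgeR adjusted p = 0.000473), and RSL24D1 at 1.39-fold (adjusted p = 0.00388). Of 8 further 40S factors 3 rose and none fell. The atypical kinase gene RIOK3 stood at 49.7, 42.25 and 50.1 CPM in untreated vector, p53-M133T and p53-R273H cells and at 81.5, 83.4 and 84.7 CPM with ATO, a 1.755-fold rise (edgeR adjusted p = 0.000153). Of 37 further processome genes 11 rose, with WDR36 at 1.35-fold, and 5 fell, with TBL3 at 0.738-fold. Of 10 further Pol I genes 3 had a change above 0 (median -0.03); TAF1A, a subunit of the promoter selectivity factor, rose 1.20-fold, and CD3EAP, a Pol I subunit, fell to 0.765-fold. Of 15 exosome and decay genes 5 rose and 2 fell (median 0.02), with the nuclease DIS3 at 1.29-fold and EXOSC4 at 0.814-fold.

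The single lines were compared next. Between the 2 libraries of a line no member reached a 2-fold ratio, as 1.66% of all genes did in vector, 2.32% in p53-M133T and 1.37% in p53-R273H cells. The median log2 ratio of the 47 genes was 0.15 in vector cells, where 36 genes were higher with ATO, 0.12 in p53-R273H cells, where 32 were, and -0.0021 in p53-M133T cells, where 23 were. The vector median was 0.07 with CPM of total counts, and the p53-M133T median turned to 0.001 with DESeq2 size factors and 0.08 with the length and GC correction. Over all genes the medians were 0.02, 0.0062 and 0.0004, and 52.7%, 50.8% and 50.1% of genes were higher. The genes lower with ATO were 11 of 47 in vector (47.2% of all genes), 15 in p53-R273H (49.1%) and 24 in p53-M133T cells (49.8%). RRN3 had the highest ratio in vector cells (1.385; 95% Clopper-Pearson interval 1.33 to 1.44) and in p53-R273H cells (1.30; 1.25 to 1.345), and UTP20 in p53-M133T cells (1.52; 1.45 to 1.59). BOP1 had the lowest ratio in each line, at 0.664 (0.640 to 0.688) in vector, 0.612 (0.591 to 0.633) in p53-M133T and 0.611 (0.588 to 0.635) in p53-R273H cells. These intervals cover counting error only, and single pairs have no replicate check.

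The ATO effect in p53-M133T cells was tested against the mean of the other 2 lines. With 1 residual degree of freedom, the spread came mostly from pooling over all genes (157.5 prior degrees of freedom). In this test 3 of the 47 genes had a higher effect in p53-M133T and 2 a lower one, against a background of 8.27% of 13974 genes called, 5.84% higher and 2.43% lower. UTP20, a large scaffold of the small subunit processome, stood at 78.8 CPM without and 119.8 CPM with ATO in p53-M133T cells, at 97.1 and 115 CPM in vector and at 110.2 and 109.7 CPM in p53-R273H cells. It was lowest of these 6 libraries in untreated p53-M133T cells and highest in the treated ones. The effect differed by 0.49 ± 0.09 on the log2 scale (edgeR adjusted p = 3.8e-05). POLR1A, the largest subunit of Pol I, stood at 181 and 231.5 CPM in p53-M133T, 205 and 216 CPM in vector and 212 and 198 CPM in p53-R273H cells (difference 0.37 ± 0.09; edgeR adjusted p = 0.00241). It too had its lowest and highest values of these 6 libraries in p53-M133T cells. HEATR1 had a difference of 0.30 ± 0.09 (edgeR adjusted p = 0.0228).

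The 2 genes with a lower effect in p53-M133T cells were BRIX1 and UTP18. BRIX1, a factor of 60S assembly, stood at 109.6 and 100.4 CPM without and with ATO in p53-M133T cells, at 94.1 and 113.5 CPM in vector and at 98.6 and 108 CPM in p53-R273H cells. UTP18, whose promoter stretch is shown above, stood at 118.5 and 109.9 CPM in p53-M133T, 102 and 119 CPM in vector and 102 and 114 CPM in p53-R273H cells. Both were lower with ATO in p53-M133T and higher in the other lines. The differences were -0.32 ± 0.09 (edgeR adjusted p = 0.0127) and -0.30 ± 0.09 (edgeR adjusted p = 0.0233). Over the 47 genes the median difference was -0.09, and 13 of 47 (27.7%) lay above 0 against 50.5% of all genes. By DESeq2's Wald test none of the 47 genes was called.

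The difference in p53-M133T cells moved with exon length, summed over all annotated exons of a gene. UTP20, POLR1A and HEATR1 have 10.0, 13.5 and 9.05 kb of exon, and BRIX1 and UTP18 have 5.01 and 2.72 kb. Across the 47 genes the Spearman correlation of the difference with exon length was 0.46, and it was 0.34 across 13974 genes of the same libraries. With length and GC trends removed it was 0.02 over the 47 genes, and UTP20 alone was called (0.34; edgeR adjusted p = 0.0128), with POLR1A at 0.12 (adjusted p = 0.568), HEATR1 at 0.18 (0.318), UTP18 at -0.19 (0.283) and BRIX1 at -0.28 (0.055). The trends were fitted to these same libraries, so the correlation of 0.02 is largely set by the correction. What the length trend has to do with treatment or library was not tested.

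**Figure D4:**
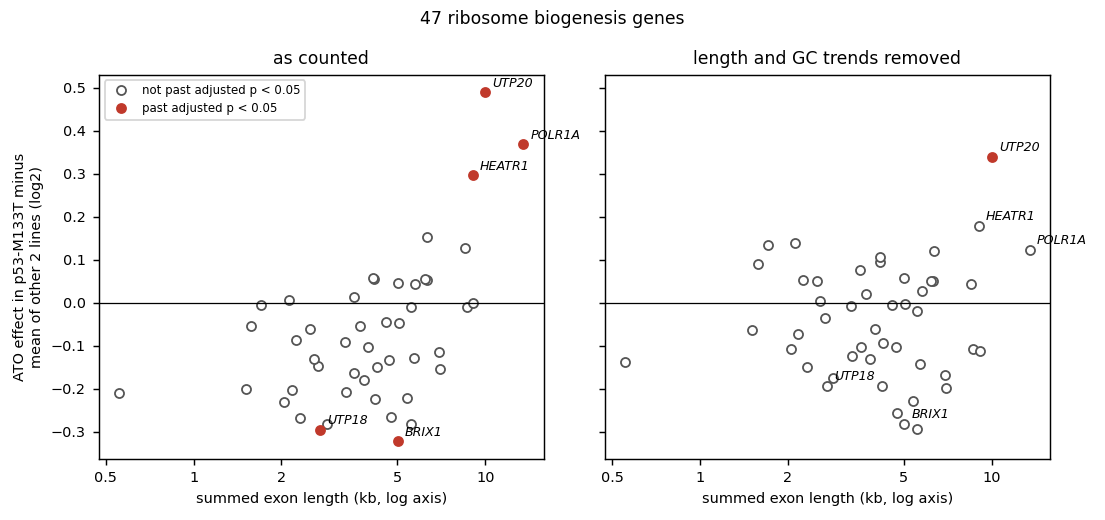
ATO effect in p53-M133T cells minus the mean of the other 2 lines (y axis, log2) against summed exon length (x axis, kb, log axis) for the 47 genes, as counted (left) and with length and GC trends removed (right), with filled points past an adjusted p of 0.05. The 3 filled points above 0 on the left are UTP20, POLR1A and HEATR1, and UTP20 alone is filled on the right.

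For p53-R273H and for vector cells none of the 47 genes had an ATO effect that differed from the mean of the other lines by edgeR's adjusted p, against 0.222% and 0.0% of all genes (0.15% higher and 0.0716% lower for p53-R273H). At an unadjusted p under 0.05 there were 2 genes for p53-R273H, HEATR1 and UTP20, both with a lower effect, and 0 for vector. DESeq2's Wald test called 0 in both. Counts were also simulated with a set spread, the same for every gene and not estimated from these libraries. On these the edgeR tests recovered 4.48% of 1.5-fold differences for p53-R273H and 1.49% for vector. For 2-fold differences the shares were 47.8% and 44.8%. These shares hold for that spread only and do not give the sensitivity of the tests on the data. The lack of calls does not show that the lines responded alike.

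Wild-type p53 cells were compared with vector cells without ATO, as 1 library against 1 library with no test. Of the 47 genes 39 (83.0%) were lower in wild-type p53, against 49.0% of all genes, with a median log2 ratio of -0.23 against 0.01, and 8 were higher, against 51.0%. None of them reached a 2-fold difference, which 4.83% of all genes did. In 38 of the 47 genes (80.9%) the wild-type p53 library was below all 3 untreated lines, against 38.3% of all genes, and in 35 (74.5%) it was the lowest of all 7 libraries, against 30.3%. WDR75, DDX10 and NOB1 were above all 3 untreated lines (6.38% against 39.8%). The median of every role was below 0. The median log2 ratio was -0.40 in the box H/ACA and -0.36 in the box C/D group, -0.32 in the multifunctional proteins, -0.29 in the processome, -0.22 in the Pol I machinery, -0.18 in 60S assembly and -0.15 in 40S maturation.

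The lowest ratios were those of UTP20 and BOP1. UTP20 stood at 62.7 CPM in wild-type p53 and 97.1 CPM in vector (ratio 0.646; 95% interval 0.608 to 0.685), and BOP1 at 129.9 and 199 CPM (0.652; 0.625 to 0.679). MYBBP1A, a nucleolar protein that can bind p53, stood at 95.7 and 144 CPM. The highest ratios were those of the helicase DDX10, at 102 against 91.8 CPM (1.115; 1.06 to 1.17), and of NOB1, at 160.2 against 144 CPM (1.11; 1.065 to 1.16). Of the 116 further biogenesis genes 92 were lower in wild-type p53, with a median of -0.18, whereas 68 of 80 cytosolic ribosomal protein genes were higher, with a median of 0.15. In the same library MPO had 868 counts, LYZ 149 and ELANE 95, against at most 31, 9 and 5 in the others. MYC, counted at 8858, stood at 343 CPM in wild-type p53. In untreated vector, p53-M133T and p53-R273H cells MYC stood at 414, 434 and 382 CPM, and with ATO at 385, 415 and 341 CPM. The part of the leukocyte markers in these differences was not tested, and genotype and batch cannot be told apart here.

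**Figure D5:**
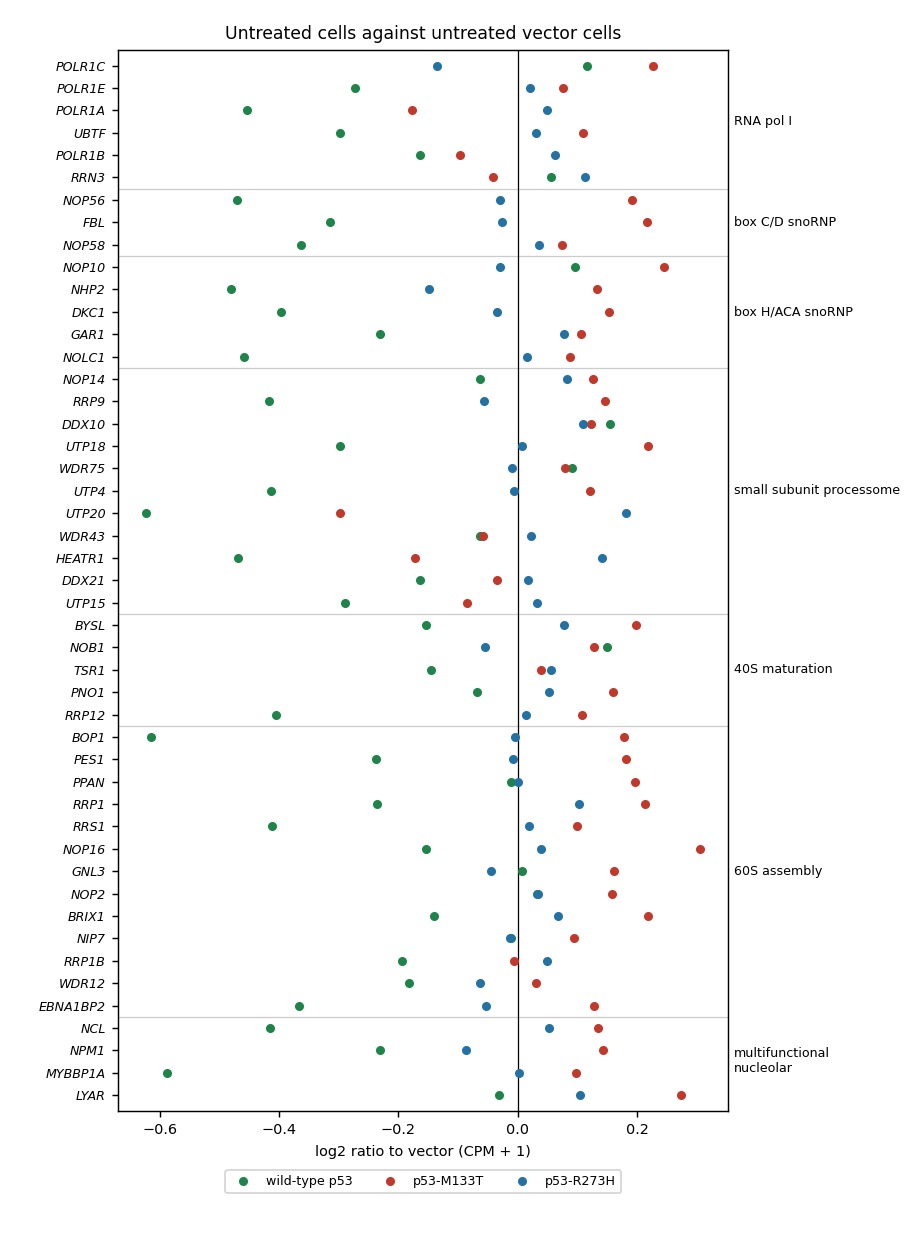
Log2 ratio of CPM + 1 to the untreated vector library (x axis) for each of the 47 genes grouped by role (y axis), in untreated wild-type p53, p53-M133T and p53-R273H cells, with 1 library each and no error bars. In wild-type p53 39 of the 47 points lie left of 0 and in p53-M133T 38 lie right of it.

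Untreated p53-M133T cells had the opposite direction. Of the 47 genes 38 (80.9%) were higher than in vector cells, against 53.1% of all genes, with a median log2 ratio of 0.13 against 0.01, and 34 (72.3%) had their highest untreated level in p53-M133T, against 28.5%. The highest ratios were those of NOP16, a 60S assembly factor, at 64.7 against 52.2 CPM (1.24; 95% interval 1.17 to 1.32), and of LYAR, at 89.7 against 74.1 CPM (1.21; 1.15 to 1.27). The lowest were those of UTP20 (0.812; 0.773 to 0.852) and POLR1A (0.884; 0.855 to 0.913), both with a long summed exon length. The ratio had a Spearman correlation with exon length of -0.51 over the 47 genes and -0.43 over 12661 genes of these 2 libraries. All 80 cytosolic ribosomal protein genes were higher too.

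Untreated p53-R273H cells were nearest to vector. Of the 47 genes 29 (61.7%) were higher, against 53.7% of all genes, with a median log2 ratio of 0.02 against 0.01. The ratios ran from 0.902 (0.862 to 0.943) for NHP2, at 105.0 against 116.5 CPM, to 1.14 (1.085 to 1.19) for UTP20. POLR1C stood at 42.8 against 47.1 CPM (0.909; 0.847 to 0.975) and HEATR1 at 263 against 238 CPM (1.10; 1.07 to 1.14). These 3 comparisons share the vector library, and no member reached a 2-fold ratio in either mutant, which 0.205% of all genes did in p53-M133T and 0.174% in p53-R273H. Between wild-type p53 and p53-M133T with ATO, 43 of the 47 genes (91.5%) were lower in wild-type p53, against 52.6% of all genes.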

How the data were processed

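RNA-seq of 7 HCT116 p53-/- libraries, 1 per group, was used. The authors deposited whole-number counts per gene, not normalized, in 1 table of 7 columns, each of which was used. Per the labels' protocols, total RNA went into TruSeq libraries sequenced as 150-bp pairs (HiSeq Xten). Per the submitters' processing notes, the tools were STAR, cutadapt and FastQC and the build was hg38. How reads were counted (program, annotation, strand) is not given in the sources used here, so values of the 18 members that share exons with another protein-coding gene are uncertain. Spans of 8 members also hold 27 snoRNA genes.

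Coordinates, exon lengths and GC contents came from GENCODE release 29 on hg38, in which all 19699 identifiers were found. Counts were scaled with TMM and tested with edgeR 4.0.16 in R 4.3.3 (quasi-likelihood test, edgeR's filter on low counts, Benjamini-Hochberg adjustment over all genes, threshold 0.05). The common ATO test used 6 libraries, blocked by cell line, with 13572 genes and 2 residual degrees of freedom. Libraries with and without ATO were paired by cell line; within a line, the deviations from the untreated and the treated mean correlated at -0.0093 in vector, 0.07 in p53-M133T and 0.11 in p53-R273H. The 3 tests of 1 line against the mean of the others covered 13974 genes with 1 residual degree of freedom and share libraries. The wild-type p53 library entered no test. Each SE given with an edgeR change was derived as the absolute log2 change over the square root of the test's F statistic. The 6 comparisons of 2 libraries used log2 ratios of CPM with a pseudocount of 1 over the 12661 genes reaching 1 CPM in any library, and 95% Clopper-Pearson intervals for how counts split between both, which cover counting error only; their median half-width for a member was 0.06 to 0.07 log2. Scripts were tested on simulated data.

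Alternatives were DESeq2 1.42.0 (Wald test and size factors), other filters and pseudocounts, CPM of total counts, a correction for exon length and GC trends, no block, leaving out each pair, and leaving out members that share exons. Members named with a value in every library were the 10 largest changes called in the common test, up to 5 called in each single-line test, the 2 highest and 2 lowest ratios of each comparison and the most abundant member of each role; others are shown where they complete a complex or a role. The members and lists were chosen with earlier results of these data known. The level of the targeted gene is not reported here.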

Additional observations from a re-analysis of the deposited data

Results flagged for a closer look

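The ATO effect of 5 of the 47 genes differed between p53-M133T cells and the mean of the other 2 lines by the test of the difference itself (edgeR's quasi-likelihood test, Benjamini-Hochberg adjustment, 1 residual degree of freedom), which is 10.6% of them against 8.27% of all genes. That test took its spread mostly from pooling over all genes (157.5 prior degrees of freedom). The log2 difference was 0.49 for UTP20, 0.37 for POLR1A and 0.30 for HEATR1, which were each higher with ATO in p53-M133T cells. It was -0.32 for BRIX1 and -0.30 for UTP18, which were each lower with ATO in p53-M133T cells and higher in the other lines. With length and GC trends removed UTP20 alone was called, and DESeq2's Wald test called none of the 5, with an adjusted p of 0.0785 for UTP20.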

How the results depend on the processing

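In the common ATO test 20 of the 47 genes were called. Settings other than leaving out a pair or the members that share exons gave 18 to 23 calls, with 18 without the replicate block. Over all genes, the fit without the block called 2620 higher and 2656 lower of 13343. The fit with the length and GC correction called 3113 higher and 2671 lower of 13572. The 13 calls without members that share exons were 9 higher and 4 lower. Leaving out 1 line's pair gave 5 to 28 calls: 5 without the vector pair, 16 without p53-R273H and 28 without p53-M133T (25 higher and 3 lower). These fits called 21.8%, 38.5% and 51.1% of all genes. BOP1, RRN3, UTP15, DDX21 and RRP12 were called in all 10 settings that kept all members. Of the 20 called genes 17 kept their call with the length and GC correction, where NOP10, POLR1B and WDR12 lost it. The 5 calls for p53-M133T became 0 by DESeq2's Wald test, 8 with a mean of at least 10 CPM, 1 with the length and GC correction and the replicate block, and 3 without members that share exons, a setting added after seeing the data. Over all genes the Wald test called 158 higher and 3 lower of 13974, of which 7044 had no adjusted p. The 10 CPM filter gave 841 higher and 436 lower of 9589 genes. The correction gave 396 higher and 251 lower of 13974 genes. No pair could be left out of the single-line tests, which would leave no residual degree of freedom. The median ratio with ATO moved from 0.153 to 0.074 in vector cells with CPM of total counts. In p53-M133T cells it turned from -0.002 to 0.001 with DESeq2 size factors, to 0.083 with the length and GC correction and to 0.014 without members that share exons, and the cause was not tested. The 39 members below vector in wild-type p53 became 38 against each of the 3 untreated lines, also added after seeing the data. Depth allowed a median 95% half-width of 0.06 to 0.07 log2 per member between 2 libraries, for counting error only.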

Other observations

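Outside ribosome assembly, the common ATO test gave these counts for related lists, beside 43.2% of all genes called (22.3% higher and 20.9% lower). Of 11 RNA polymerase III subunit genes 3 rose and none fell (27.3% called), with POLR3C at 1.28-fold (edgeR adjusted p = 0.00272) and POLR3E at 1.20-fold (adjusted p = 0.00622). Without the vector pair 1 of the 11 was called, against 21.8% of all genes. Of 7 RNA polymerase II subunit genes 1 rose (14.3% called), POLR2B, at 1.18-fold (edgeR adjusted p = 0.00801). Of 8 genes of the MYC network 2 rose and 3 fell (62.5% called). MXD1, a MAX partner that opposes MYC, stood at 4.16, 4.03 and 4.64 CPM in untreated vector, p53-M133T and p53-R273H cells and at 8.20, 9.14 and 7.74 CPM with ATO (1.95-fold; edgeR adjusted p = 0.000826). Its treated libraries were all above the untreated ones, and the wild-type p53 library was higher at 12.8 CPM. MXD3, another such partner, fell to 0.626-fold (edgeR adjusted p = 0.0027). Without the vector pair 2 of the 8 were called, against 21.8% of all genes.

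Of 80 cytosolic ribosomal protein genes tested, 12 rose and 1 fell with ATO (16.2% called against 43.2% of all genes), and 73 had a log2 change above 0, with a median of 0.08. RPL10A rose 1.22-fold (edgeR adjusted p = 0.00412). The count depended on the processing: leaving out a pair gave 49 calls for p53-M133T, 2 for p53-R273H and 0 for vector. Those fits called 51.1%, 38.5% and 21.8% of all genes in the same order. With the length and GC correction there were 30 calls, where 3113 of 13572 genes were higher and 2671 lower. In untreated cells all 80 were above vector in p53-M133T and none was in p53-R273H, each as 1 library against 1 library.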
